A study of Mus musculus with 6 samples.

Results

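A set of 10 direct targets and negative regulators of Wnt/β-catenin signaling was followed in RNA-seq of mouse livers: *Axin2*, *Sp5*, *Nkd1*, *Notum*, *Rnf43*, *Znrf3*, *Lgr5*, *Tbx3*, *Tnfrsf19* and *Lect2*. They were taken by gene symbol from the deposited table of 31950 genes, in which each of the 10 had 1 line. In Wnt signaling, β-catenin that escapes its destruction complex enters the nucleus and works with TCF/LEF factors on target promoters and enhancers. Many of the genes switched on in this way encode brakes on the same pathway, which is why they serve as readouts of its activity. In the liver, Wnt signals from endothelial cells keep the pathway on in the hepatocytes around the central vein.

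The table holds 3 livers of WT mice and 3 livers of β-cateninΔ(ex3)/+ mice, all of the C57BL/6 strain and labelled as 8 weeks old. In β-cateninΔ(ex3)/+ mice, exon 3, which holds the sites that mark β-catenin for degradation, is missing from 1 allele of *Ctnnb1*, its gene. The study deleted exon 3 in adult liver either with *Cre*-adenovirus, which gave mosaic livers, or with tamoxifen in *ERT2-Alb-Cre* mice, in which the albumin promoter restricts Cre to hepatocytes. For livers, the paper uses the name β-cateninΔ(ex3)/+ for the tamoxifen mice and another name for the adenovirus mice. Its RNA-seq methods use the name β-cateninΔ(ex3)/+, which points to the tamoxifen mice. They do not state how exon 3 was deleted in the sequenced livers or what the WT mice received. The labels number the replicates but name no animals, so the p-values measure the spread between these samples. Among 1854 genes with a mean of at least 20 FPKM (fragment counts scaled to transcript length and library size), the median coefficient of variation (CV) was 4.50% in WT and 3.31% in β-cateninΔ(ex3)/+ livers. Depth, estimated from the spacing of low FPKM in genes of 1 exon, was 24.5 M to 24.75 M fragments in WT and 16.95 M to 19.55 M in β-cateninΔ(ex3)/+ livers. Only 27.4% to 38.1% of the values checked fitted that spacing (4% by chance), and the depths are rough.

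The groups differed in more than the β-catenin allele. *Xist*, the RNA that silences an X chromosome in females, had 20.3 to 22.2 FPKM in WT livers and at most 0.0146 FPKM in β-cateninΔ(ex3)/+ livers, and all 4 Y-linked genes checked went the other way. *H19*, *Igf2* and *Afp*, which the liver switches off after birth, had at least 2320, 803 and 601 FPKM in a WT liver and at most 0.048, 0 and 2.81 FPKM in a β-cateninΔ(ex3)/+ liver. All 9 genes of a list for the young liver were at least 2-fold lower in β-cateninΔ(ex3)/+ livers (limma adjusted p under 0.05), although the labels give both groups the same age. Genotype, sex and whatever moved these genes cannot be told apart for any gene below. *Alb* was the most abundant of the 8 hepatocyte markers in each liver, with 24721 to 43342 FPKM.

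RefSeq promoter windows (GRCm38.p6), from 250 bases before to 50 bases after the transcription start, were at hand for 6 of the 10 genes: *Axin2*, *Sp5*, *Nkd1*, *Rnf43*, *Lect2* and *Tnfrsf19*. They were searched on both strands for the TCF/LEF heptamers CTTTGAA, then CTTTGAT, then CTTTGTA and lastly CTTTGTT. At least 1 heptamer stood in a window of 3 of the 6 genes, *Sp5*, *Lect2* and *Tnfrsf19*, against 18.9% of the 27025 genes with a window. The 6 genes had 8 windows, 3 of them with a heptamer, against 16.9% of all 32851 windows. *Rnf43* and *Tnfrsf19* had more than 1 window each. The heptamer of *Tnfrsf19* was in a window inside the gene and not in the one nearest the gene start. The window of *Nkd1* and each window of *Rnf43* also lay inside the gene, so the bases before these gene starts were not searched. The 250 bases before the start are shown for *Sp5* and *Axin2*, which had the largest fold changes of the set, and for *Lect2*, which had the highest level; capitals mark the heptamers, and all run 5′ to 3′ on the strand of the gene.
*Sp5* (chr2:70474673-70474922, plus strand): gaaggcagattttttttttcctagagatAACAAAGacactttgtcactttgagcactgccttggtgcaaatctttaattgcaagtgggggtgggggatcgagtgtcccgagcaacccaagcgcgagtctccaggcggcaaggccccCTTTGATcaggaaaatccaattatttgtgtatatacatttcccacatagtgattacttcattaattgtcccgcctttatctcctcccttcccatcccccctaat
*Axin2* (chr11:108920099-108920348, plus strand): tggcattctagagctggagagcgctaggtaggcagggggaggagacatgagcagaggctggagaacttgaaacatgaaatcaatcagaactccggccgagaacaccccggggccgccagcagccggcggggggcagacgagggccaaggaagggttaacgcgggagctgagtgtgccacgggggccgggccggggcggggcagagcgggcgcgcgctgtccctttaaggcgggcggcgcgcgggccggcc
*Lect2* (chr13:56548539-56548788, minus strand): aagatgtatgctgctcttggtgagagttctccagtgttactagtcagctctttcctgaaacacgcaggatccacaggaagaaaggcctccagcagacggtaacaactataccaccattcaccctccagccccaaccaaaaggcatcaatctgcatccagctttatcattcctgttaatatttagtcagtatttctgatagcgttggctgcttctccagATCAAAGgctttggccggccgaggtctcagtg
The window of *Sp5* held 2 heptamers, at positions -222 (on the other strand) and -104, where -1 is the last base before the start. *Lect2* held 1, at position -32 on the other strand, and none of the heptamers stood in the window of *Axin2*. A match is a run of letters and not a measured binding site. In its own map of DNA bound by β-catenin, the paper reported binding peaks at the *Axin2* locus.

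Of the 10 genes, 4 rose in β-cateninΔ(ex3)/+ livers and 0 fell, where a change means a limma adjusted p under 0.05 and at least a 2-fold difference on the log2(FPKM + 1) scale. By the same rule 8.17% of the 13243 genes tested rose and 4.52% fell, 12.7% in all. The genes that rose were *Sp5*, *Axin2*, *Tbx3* and *Notum*. All 10 passed the filter of a mean of at least 0.5 FPKM. At any fold change, 7 of the 10 were higher and 1 was lower at an adjusted p under 0.05, beside 37.4% and 19.6% of all genes tested (57% in either direction). The lowest β-cateninΔ(ex3)/+ liver was above the highest WT liver for 8 of the 10 genes, beside 43% of all genes tested. The order was reversed for 1, beside 23%, so that the groups were apart for 9, beside 66%. The median log2 fold change was 0.56 for the 10 genes and 0.14 for all genes tested.

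**Figure D1:**
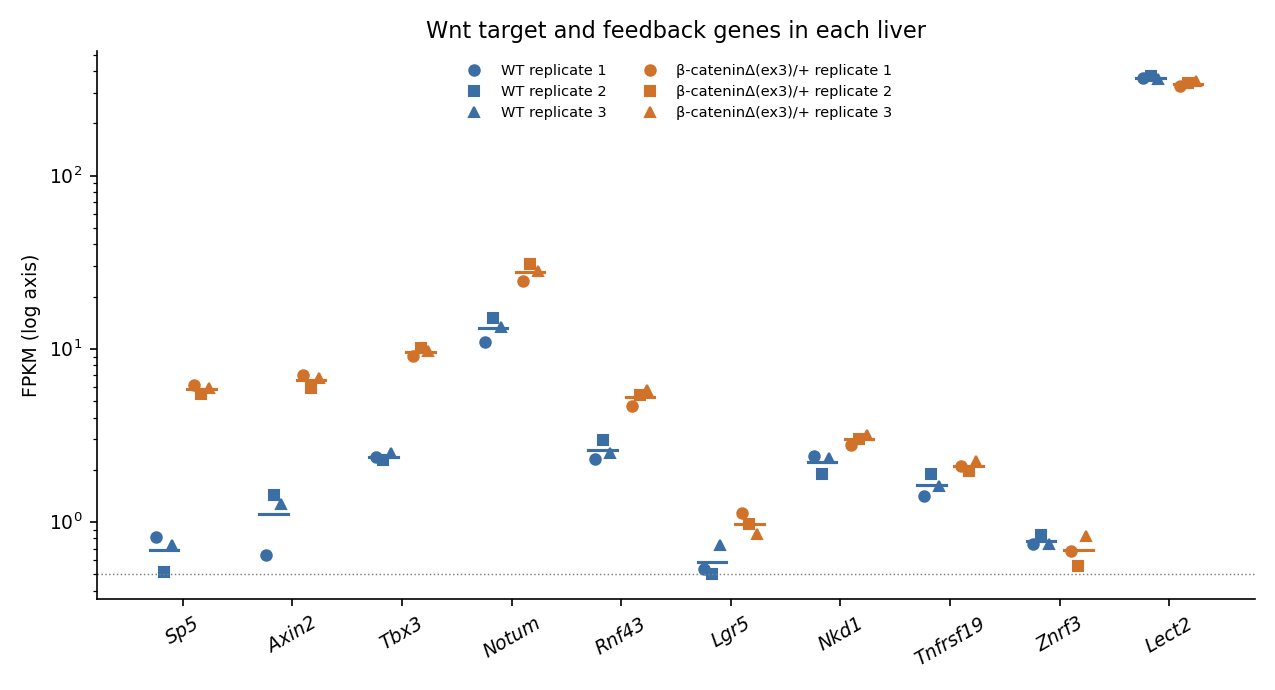
FPKM of the 10 genes on a log axis, 1 point per liver (WT in blue, β-cateninΔ(ex3)/+ in orange, a marker shape for each replicate number) with short lines at the group means and a dotted line at the 0.5 FPKM filter. *Sp5* sat at 0.515 to 0.820 FPKM in WT and 5.43 to 6.15 FPKM in β-cateninΔ(ex3)/+ livers, while the groups overlapped for *Znrf3*, and *Lect2* had 328 FPKM or more in each liver.

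Both transcription factors of the set rose. *Sp5* (ENSMUSG00000075304, chr2:70474923-70477729), a zinc finger repressor induced by Wnt signals, stood at 0.820, 0.515 and 0.736 FPKM in the WT livers and at 6.15, 5.43 and 5.92 FPKM in the β-cateninΔ(ex3)/+ livers, each in the order of replicates 1 to 3, as for all genes here. The groups were far apart, and the mean was 8.45 times higher in β-cateninΔ(ex3)/+ livers. The log2 fold change was 2.02 ± 0.089 (SE; adjusted p = 1.01e-05, limma). *Tbx3* (ENSMUSG00000018604, chr5:119670669-119684724), a T-box repressor, stood at 2.35, 2.28 and 2.50 FPKM in the WT livers and at 9.11, 10.1 and 9.63 FPKM in the β-cateninΔ(ex3)/+ livers. It was the steadiest of the set after *Lect2*, with a CV of 4.68% in WT and 5.23% in β-cateninΔ(ex3)/+ livers. Its mean was 4.05 times higher, with a log2 fold change of 1.65 ± 0.058 (SE; adjusted p = 3.98e-06, limma). Its antisense neighbor *Tbx3os1*, which shares 115 exonic bases with it, was also higher, averaging 4.13 ± 0.491 FPKM over the WT livers against 7.55 ± 0.345 FPKM over the β-cateninΔ(ex3)/+ livers (SD, n = 3 each). The libraries keep the strand, but the strand setting of the authors' counting is not given in the sources used here, so fragments of the 2 genes may be mixed.

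*Axin2* and *Nkd1*, which act inside the cell, differed in size of change. *Axin2* (ENSMUSG00000000142, chr11:108920349-108950783) encodes a scaffold of the destruction complex and is the classical feedback gene of the pathway. It stood at 0.641, 1.43 and 1.26 FPKM in the WT livers and at 7.03, 5.89 and 6.79 FPKM in the β-cateninΔ(ex3)/+ livers. WT replicate 1 was the lowest, and no β-cateninΔ(ex3)/+ liver came near the WT values. The mean was 5.91 times higher, with a log2 fold change of 1.86 ± 0.16 (SE; adjusted p = 0.000175, limma). The CV of *Axin2* in WT livers was 37.4%, above that of 86.6% of the 4697 genes with a WT mean within 2 times its own, whose median CV was 13.7%. *Nkd1* (ENSMUSG00000031661, chr8:88521354-88594884), which binds Dishevelled and dampens the signal, stood at 2.41, 1.88 and 2.34 FPKM in the WT livers and at 2.79, 2.99 and 3.18 FPKM in the β-cateninΔ(ex3)/+ livers. The groups did not overlap, but the gap between them was narrow. The mean was 1.35 times higher, with a log2 fold change of 0.31 ± 0.085 (SE; adjusted p = 0.0212, limma), under 2-fold. The adjusted p of *Nkd1* (limma) was 0.128 after median-ratio scaling, 0.171 after quantile normalization, 0.0561 without β-cateninΔ(ex3)/+ replicate 2 and 0.0662 without β-cateninΔ(ex3)/+ replicate 3.

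*Notum* (ENSMUSG00000042988, chr11:120653788-120661175) encodes a secreted enzyme that strips the lipid from Wnt proteins. It stood at 10.9, 15.1 and 13.3 FPKM in the WT livers and at 24.4, 30.8 and 28.1 FPKM in the β-cateninΔ(ex3)/+ livers. Each β-cateninΔ(ex3)/+ liver was above each WT liver, and the mean was 2.12 times higher. The log2 fold change was 1.03 ± 0.13 (SE; adjusted p = 0.00104, limma), just past 2-fold. The spread was wide for its level: its CV was above that of 86.9% of genes of like level in WT and of 85.1% in β-cateninΔ(ex3)/+ livers. It was under 2-fold after median-ratio scaling (0.85), after quantile normalization (0.74), without WT replicate 1 (0.92) and without β-cateninΔ(ex3)/+ replicate 2 (0.96), each on the log2 scale. *Notum* shares 708 of its 2408 exonic bases with *Notumos* on the opposite strand, which rose from 1.04 ± 0.107 to 3.97 ± 0.0411 FPKM (SD, n = 3 each), a log2 fold change of 1.29 ± 0.061 (SE; adjusted p = 1.33e-05, limma). Fragments of this pair may be mixed for the same reason as those of *Tbx3* and *Tbx3os1*.

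*Rnf43* and *Znrf3* encode related ubiquitin ligases that remove Frizzled receptors from the cell surface, and *Lgr5* encodes a receptor for R-spondins, which neutralize these ligases. *Rnf43* (ENSMUSG00000034177, chr11:87662722-87735539) stood at 2.29, 2.96 and 2.50 FPKM in the WT livers and at 4.68, 5.39 and 5.73 FPKM in the β-cateninΔ(ex3)/+ livers. The groups did not overlap and the mean was 2.04 times higher. On the log2(FPKM + 1) scale the difference was 0.81 ± 0.099 (SE; adjusted p = 0.000812, limma), under 2-fold, and with a pseudocount of 0.1 it was 1.002 and passed. *Znrf3* (ENSMUSG00000041961, chr11:5276324-5444847) stood at 0.743, 0.838 and 0.746 FPKM in the WT livers and at 0.676, 0.558 and 0.830 FPKM in the β-cateninΔ(ex3)/+ livers. These groups overlapped, and the log2 difference was -0.076 (95% interval -0.27 to 0.12, limma adjusted p = 0.447). The whole interval of *Rnf43*, from 0.57 to 1.05, lay above that of *Znrf3*. *Lgr5* (ENSMUSG00000020140, chr10:115450311-115587780) was the lowest of the set in WT livers, with 0.532, 0.496 and 0.733 FPKM, and had 1.12, 0.964 and 0.849 FPKM in β-cateninΔ(ex3)/+ livers. The groups did not overlap, and the mean was 1.66 times higher. The log2 difference was 0.32 ± 0.088 (SE; adjusted p = 0.0234, limma), under 2-fold, and this scale understates changes at such low levels. With a pseudocount of 0.1 it was 0.66. The adjusted p of *Lgr5* (limma) was 0.0656 with median-ratio scaling and 0.0587 with quantile normalization. It was 0.0728, 0.067, 0.0689 and 0.0573 without WT replicate 1, WT replicate 2, β-cateninΔ(ex3)/+ replicate 1 and β-cateninΔ(ex3)/+ replicate 2.

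*Tnfrsf19* (ENSMUSG00000060548, chr14:60963875-61046490), also called *Troy*, encodes a membrane receptor of the tumor necrosis factor receptor family. It stood at 1.42, 1.88 and 1.60 FPKM in the WT livers and at 2.09, 1.96 and 2.24 FPKM in the β-cateninΔ(ex3)/+ livers. The groups came close without overlapping. The mean was 1.29 times higher, with a log2 difference of 0.24 (95% interval 0.033 to 0.44, limma adjusted p = 0.0521), which did not pass the test; without WT replicate 2 the adjusted p was 0.0227. *Lect2* (ENSMUSG00000021539, chr13:56542464-56548502) encodes a chemotactic protein that hepatocytes secrete into the blood. It stood at 366, 377 and 361 FPKM in the WT livers and at 328, 341 and 349 FPKM in the β-cateninΔ(ex3)/+ livers. Each β-cateninΔ(ex3)/+ liver was below each WT liver, by a small margin. The mean was 1.08 times higher in WT livers, with a log2 difference of -0.12 ± 0.034 (SE; adjusted p = 0.0301, limma). The adjusted p of *Lect2* (limma) was 0.0663, 0.0613, 0.0818 and 0.0709 without WT replicate 1, WT replicate 2, β-cateninΔ(ex3)/+ replicate 1 and β-cateninΔ(ex3)/+ replicate 2. After median-ratio scaling this difference was -0.31 and after quantile normalization -0.32. The 8 hepatocyte markers had a median log2 difference of -0.54, and 6 of them were lower in β-cateninΔ(ex3)/+ livers at an adjusted p under 0.05. The others went the other way. *Hnf4a* rose past 2-fold, with a log2 fold change of 1.10 (limma adjusted p = 1.24e-06). *Apob* was higher in each β-cateninΔ(ex3)/+ liver, with a log2 fold change of 1.27 (limma adjusted p = 0.0625).

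For each gene whose groups did not overlap, the two-sided exact permutation test gave p = 0.1, below which 3 livers a group cannot go; for *Znrf3* it gave p = 0.4.

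**Figure D2:**
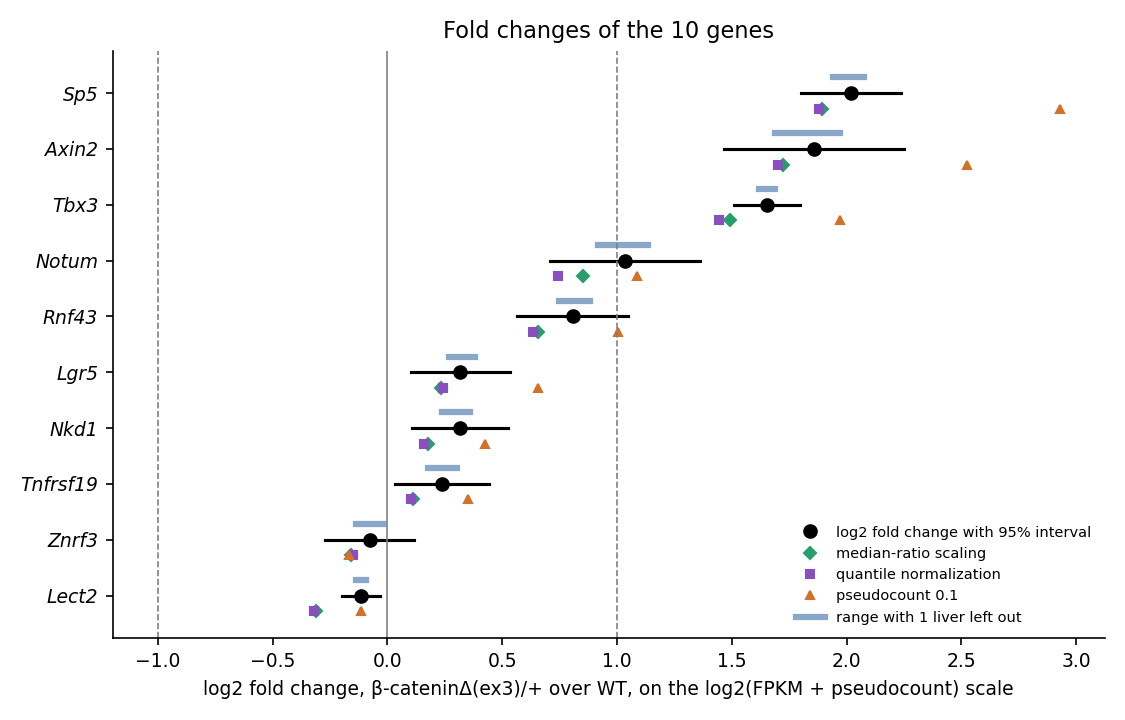
Log2 fold changes of the 10 genes (β-cateninΔ(ex3)/+ over WT) with 95% intervals in black, the values under other scalings and a smaller pseudocount as colored markers, and the range over fits without 1 liver as blue bars; dashed lines mark 2-fold. *Sp5*, *Axin2* and *Tbx3* stayed beyond 2-fold under each setting drawn, *Notum* crossed the line, and *Znrf3* lay at -0.076 with an interval across 0.

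By size of change on the log2(FPKM + 1) scale the genes ranked in the order *Sp5*, *Axin2*, *Tbx3*, *Notum*, *Rnf43*, *Lgr5*, *Nkd1*, *Tnfrsf19*, *Znrf3* and *Lect2*. The 95% intervals of neighbors in this order did not overlap between *Tbx3* and *Notum* or between *Rnf43* and *Lgr5*. All other neighbors overlapped. The gap between *Rnf43* and *Lgr5* depends on the pseudocount. With a pseudocount of 0.1 it was narrower, at 1.002 ± 0.124 for *Rnf43* and 0.66 ± 0.186 for *Lgr5* (SE). The interval of *Sp5*, from 1.801 to 2.24, lay just above that of *Tbx3*, from 1.51 to 1.795, and that of *Axin2* overlapped both. Among the 13243 genes ranked from the largest increase down on this scale, *Sp5* stood at place 312, *Axin2* at 362, *Tbx3* at 454 and *Notum* at 1061. The scale shrinks the changes of genes at low levels, and these places depend on it. By level, *Lect2* and then *Notum* were highest in both groups. Below them the order differed: *Tbx3*, *Axin2* and *Sp5* took places 3 to 5 in β-cateninΔ(ex3)/+ livers, and places 4, 7 and 9 in WT livers. In WT livers the values of neighboring genes overlapped from *Rnf43* through *Nkd1* and from *Tnfrsf19* down to *Lgr5*. In β-cateninΔ(ex3)/+ livers they overlapped only from *Axin2* through *Rnf43*.

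Single livers did not stand apart for the whole set. WT replicate 1 was the lowest WT liver for 5 of the 10 genes, among them *Axin2*, *Notum*, *Rnf43* and *Tnfrsf19*, but the highest for *Sp5* and *Nkd1*. Among β-cateninΔ(ex3)/+ livers, replicate 1 was lowest for 5 genes and highest for 3, namely *Sp5*, *Axin2* and *Lgr5*. *Axin2*, *Notum*, *Rnf43* and *Znrf3* lie on chromosome 11, which holds 8.19% of the genes tested. *Axin2* and *Notum* rose, *Rnf43* was higher at an adjusted p under 0.05 (limma) but under 2-fold, and *Znrf3* did not pass the test. *Rnf43*, *Axin2* and *Notum* start at positions 87662722, 108920349 and 120653788, and *Znrf3* lies far from them, at 5276324. A shared effect of the chromosome was not tested.

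**Figure D3:**
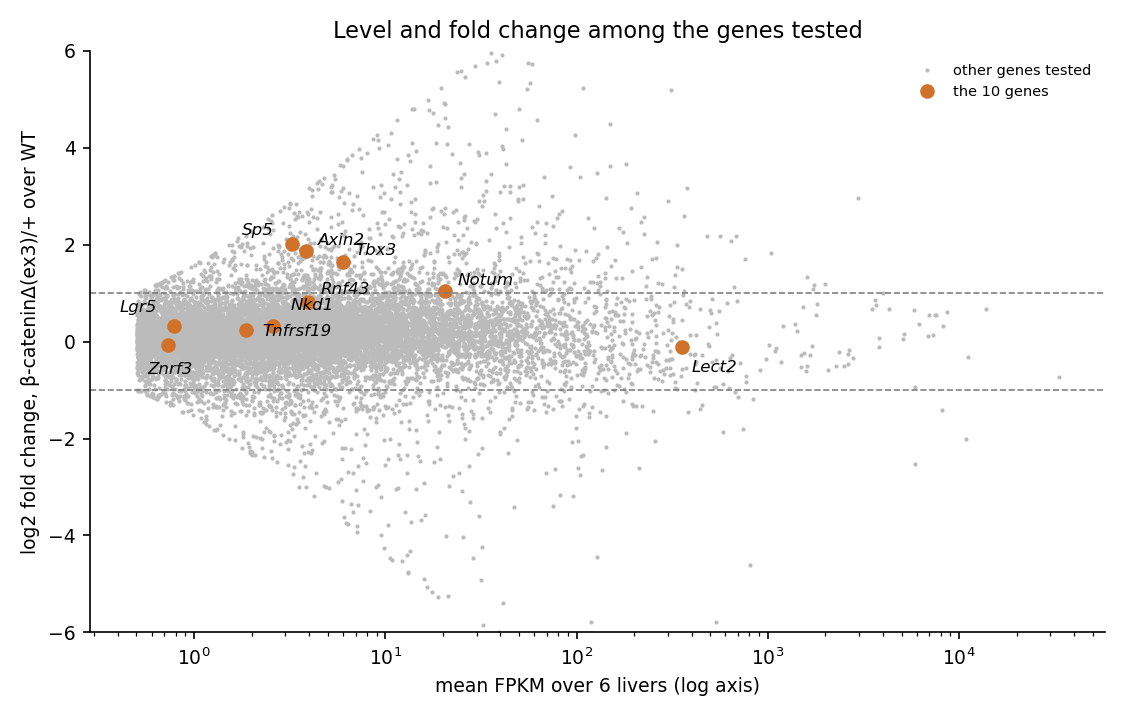
Mean FPKM over the 6 livers (log axis) against the log2 fold change (β-cateninΔ(ex3)/+ over WT) for the 13243 genes tested in gray, with the 10 genes in orange and dashed lines at 2-fold; 33 genes beyond 6 on the log2 scale are not drawn. *Sp5* and *Axin2*, at 2.02 and 1.86, are the highest of the 10 on the vertical axis, and *Lect2*, at -0.12, lies farthest to the right of them.

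Other antagonists of the pathway were mostly low in these livers. Of 26 such genes, 9 passed the filter, 0 rose and 3 fell, with a median log2 fold change of -0.19. Those at an adjusted p under 0.05 at any fold change (limma) were 3 higher and 4 lower. Over all genes tested these shares were 37.4% and 19.6%, and 8.17% rose and 4.52% fell. The 3 that fell were *Wif1*, a secreted Wnt-binding inhibitor, *Dkk3*, of the Dickkopf family, and *Bambi*, a pseudoreceptor best known for blocking TGF-β family signals rather than Wnt signals. *Wif1* had 1.24 to 1.75 FPKM in WT livers and at most 0.0631 FPKM in β-cateninΔ(ex3)/+ livers, a log2 fold change of -1.30 (limma adjusted p = 7.91e-05). *Dkk3* averaged 2.20 ± 0.250 FPKM over the WT livers against 0.317 ± 0.0359 FPKM over the β-cateninΔ(ex3)/+ livers (SD, n = 3 each), a log2 fold change of -1.28. *Bambi* averaged 1.83 ± 0.0508 FPKM over the WT livers against 0.345 ± 0.0719 FPKM over the β-cateninΔ(ex3)/+ livers (SD, n = 3 each), a log2 fold change of -1.07. These genes moved with markers of stellate cells and fibroblasts, all 9 of which were lower in β-cateninΔ(ex3)/+ livers at an adjusted p under 0.05, 5 of them at least 2-fold. The summed level of those markers was 67.2 to 70.5 FPKM in WT and 27.5 to 29.8 FPKM in β-cateninΔ(ex3)/+ livers, with none of the 9 at 0 in any liver, and their part in the result was not tested. In whole liver, fewer cells of a type and less RNA per cell cannot be told apart.

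Other target genes of β-catenin, mostly known from gut and embryo, were split. Of 33, 16 passed the filter, 3 rose and 1 fell, with a median log2 fold change of 0.39. Over all genes tested, 8.17% rose and 4.52% fell. At any fold change, 8 of the 16 were higher and 4 lower at an adjusted p under 0.05 (limma). The shares over all genes tested were 37.4% and 19.6%, so the list was not far from them. *Ccn5*, which encodes a matricellular protein, was listed at 0 in 2 WT livers and at 0.0484 FPKM in the other, and had 12.03 to 13.1 FPKM in β-cateninΔ(ex3)/+ livers (log2 fold change 3.74, limma adjusted p = 1.33e-07). *Ccnd1*, which encodes cyclin D1, rose from 12.5 ± 0.884 to 34.1 ± 1.38 FPKM (SD, n = 3 each), a log2 fold change of 1.38. *Ppard*, a nuclear receptor of fatty acids, rose from 0.384 ± 0.141 to 2.23 ± 0.162 FPKM (SD, n = 3 each), a log2 fold change of 1.23. *Sox4*, a transcription factor of progenitor cells, fell from 1.89 ± 0.0512 to 0.231 ± 0.0739 FPKM (SD, n = 3 each), a log2 fold change of -1.23. The 6 proliferation markers moved with *Ccnd1*: all were higher at an adjusted p under 0.05 and 2 rose at least 2-fold, from a summed 11.3 to 13.1 FPKM in WT to 26.5 to 27.4 FPKM in β-cateninΔ(ex3)/+ livers. Their part in the result was not tested.

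Of 6 genes that encode R-spondins or the other Lgr receptors, 3 passed the filter, 0 rose and 1 fell. *Rspo3*, an R-spondin ligand made by endothelial and mesenchymal cells, stood at 2.78, 3.16 and 2.57 FPKM in the WT livers and at 0.852, 1.07 and 0.329 FPKM in the β-cateninΔ(ex3)/+ livers. The groups did not overlap, and the log2 fold change was -1.15 ± 0.17 (SE; adjusted p = 0.00203, limma). Without β-cateninΔ(ex3)/+ replicate 3 the log2 fold change of *Rspo3* was -0.97 (adjusted p = 0.00131, limma), just under 2-fold, so that 0 genes of this list were called lower. Of the 9 endothelial markers 8 passed the filter, and all 8 were lower in β-cateninΔ(ex3)/+ livers at an adjusted p under 0.05, 1 of them at least 2-fold. Their summed level was 72.9 to 75.0 FPKM in WT and 51.7 to 53.1 FPKM in β-cateninΔ(ex3)/+ livers, and their part in the result was not tested.

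Larger log2 fold changes stood in a list of hepatocyte genes known from around the central vein. Of its 24 genes, all of which passed the filter, 16 rose and 1, *Slc13a3*, fell, with a median log2 fold change of 2.42. At any fold change, 21 were higher and 3 lower at an adjusted p under 0.05 (limma). Over all genes tested these shares were 37.4% and 19.6%. Besides *Slc13a3*, the lower genes were *Nr1i3* and *Cyp2e1*, at -0.71 and -0.23. *Aldh1a1*, *Gstm3* and *Oat*, a retinaldehyde dehydrogenase, a glutathione transferase and ornithine aminotransferase, had log2 fold changes of 6.15, 5.24 and 5.19. *Cyp2a5*, a cytochrome P450, was at 2.55 FPKM on average in WT and 97.7 FPKM in β-cateninΔ(ex3)/+ livers. The log2(FPKM + 1) scale shrinks changes at low levels, so genes of unlike level are not compared on equal terms. *Sp5*, with a mean 8.45 times higher, had a log2 fold change of 2.02. *Glul*, a far more abundant pericentral gene, was 6.07 times higher and had 2.59. Of 18 genes of the periportal zone, where the pathway is normally low, 7 rose and 4 fell, with a median log2 fold change of 0.26. Over all genes tested, 8.17% rose and 4.52% fell. With median-ratio scaling or quantile normalization 6 of the 18 rose and 6 fell. *Pigr*, the transport receptor of IgA, and *Cyp2f2*, a cytochrome P450, led the increases at 5.75 and 3.60, and *Ass1*, a urea cycle enzyme, and *Sds*, a serine dehydratase, were at 2.17 and 2.16. *G6pc*, the last enzyme of glucose output, had the largest decrease of this list, at -2.05.

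**Figure D4:**
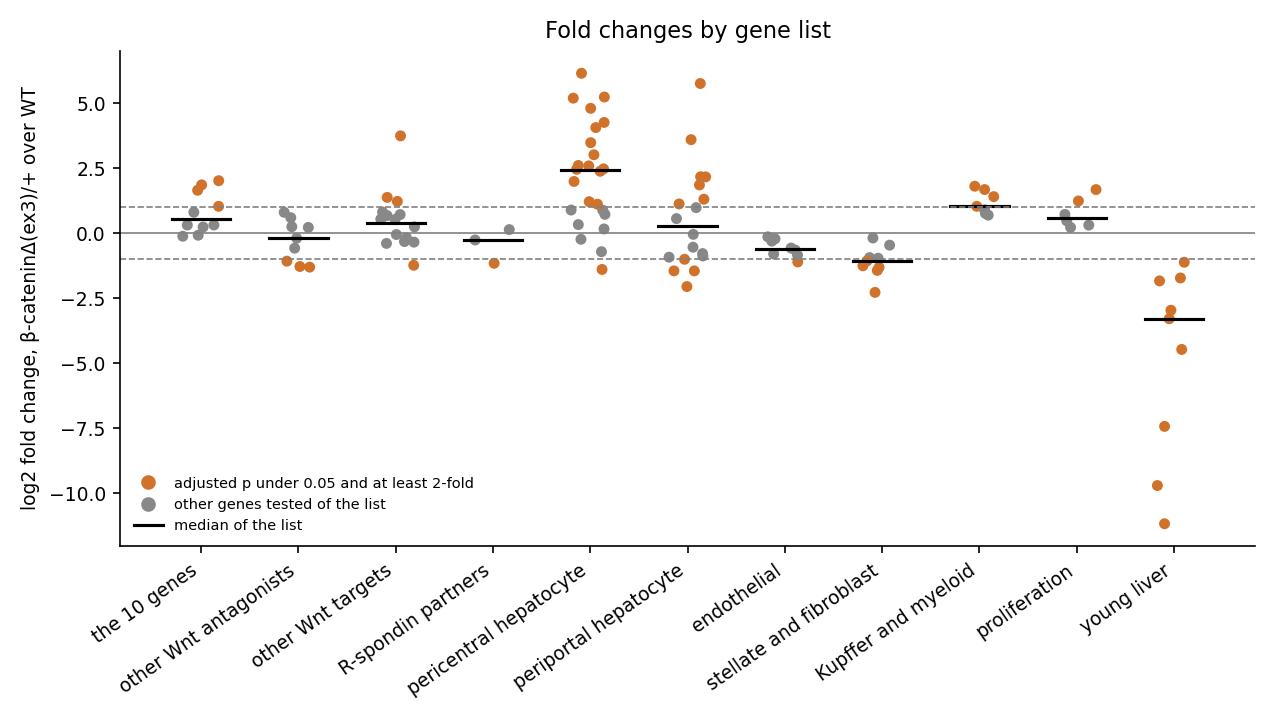
Log2 fold changes (β-cateninΔ(ex3)/+ over WT) of the tested genes of each list, 1 point per gene, orange where the adjusted p is under 0.05 and the change at least 2-fold; black lines are medians and dashed lines mark 2-fold. The 10 genes have a median of 0.56, below the 2.42 of the pericentral list and above the -0.19 of the other antagonists, and all 9 young liver genes lie below the lower dashed line. The scale is log2(FPKM + 1), which shrinks the changes of genes at low levels.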

How the data were processed

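RNA-seq of 3 WT and 3 β-cateninΔ(ex3)/+ livers was analyzed, 1 library per liver, with groups from the sample labels and columns matched to livers by name (0 columns unused). Gene levels were deposited by the authors as FPKM. The submitters' processing notes name cutadapt 1.9, HISAT2 2.0.4, StringTie 1.3.4d, DESeq2 and edgeR; parameters and genome build are not given in the sources used here. Coordinates are those of the table; for all 10 genes, and 28911 of 31950 in all, they match GENCODE M21 (GRCm38). FPKM hold no read counts, hence no counting intervals; depth was searched between 10 M and 30 M fragments.

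Genes with a mean of at least 0.5 FPKM (13243) were fitted as log2(FPKM + 1) with limma 3.58.1 (eBayes with a trend, R 4.3.3) and adjusted by Benjamini-Hochberg over all of them. The test was checked on simulated data. Python 3.11.15 and matplotlib 3.10.9 were used otherwise. The genes named are the 10 genes, up to 4 changed genes per list by size, and markers of tissue, sex and age. *Slc13a3*, *Nr1i3*, *Cyp2e1*, *Glul* and *G6pc* were named after their values were seen. Genes with a profile like that of *Axin2* are not given, because 6 livers in 2 separate groups do not allow it. The 10 genes and the lists were chosen with earlier results of these data known. Alternatives were a pseudocount of 0.1, no filter, a mean of at least 1 FPKM, median-ratio scaling, quantile normalization, no trend, a block on the replicate number, leaving out single livers, and any fold change.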

Additional observations from a re-analysis of the deposited data

How the results depend on the processing

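The median gene tested shifted by -0.14 (log2) under median-ratio scaling and by -0.16 under quantile normalization. The share of higher genes among those that changed was 64.4%, then 53.1% and 49.5%. *Notum* was under 2-fold at 0.85 and 0.74 in these scalings, and *Rnf43* passed at a pseudocount of 0.1 (1.002), where 2705 genes changed in all against 1680. No fold change of the 10 genes changed sign in 128 comparisons, and the call of a change, which needs both thresholds, was the same in 123. Many of these signs could not change. The other filters, the fit without a trend and the block on the replicate number leave the fold change as it was. Where the groups did not overlap, leaving out 1 liver cannot turn the sign. The adjusted p alone crossed 0.05 in 20 of the 128 comparisons, of which 7 were of *Lgr5*, 7 of *Lect2*, 4 of *Nkd1* and 2 of *Tnfrsf19*.

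At any fold change there were 7551 genes in all, and 7 of the 10 genes were higher and 1 lower. In the lists this gave 3 antagonists higher, 8 targets higher and 4 lower, 3 pericentral genes lower and 7 periportal genes lower. With 1 liver left out, *Notum* ranged from 0.92 to 1.14 and 3 to 4 of the 10 genes rose; 0 to 1 R-spondin partner fell. *Znrf3* and *Lgr5* could not be fitted at a mean of at least 1 FPKM, which they do not reach.

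With the replicate number as a block (replicate block), 4 of the 10 genes rose, 0 fell, and 1673 genes changed in all; *Axin2* had a log2 fold change of 1.86 (limma adjusted p = 0.00243). The block changed no call on the 10 genes, but the adjusted p of *Lgr5* was 0.0671 (limma). Without a filter, without a trend and with the block *Lect2* had adjusted p of 0.054, 0.0928 and 0.0629, and *Tnfrsf19* had 0.0457 without a trend (limma). The labels do not say whether same-numbered livers were paired. Deviations of same-numbered livers from their group means correlated at -0.0054 to 0.0268, and with 3 livers a group these values cannot settle it. The estimated depth limits what low FPKM such as those of *Znrf3* and *Lgr5* can show.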

Other observations

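Markers of blood and immune cells moved in both directions. All 7 Kupffer and myeloid markers were higher in β-cateninΔ(ex3)/+ livers at a limma adjusted p under 0.05, and 4 rose at least 2-fold, with a summed level of 170.1 to 177 FPKM in WT and 486 to 495 FPKM in β-cateninΔ(ex3)/+ livers. Of 6 erythroid genes 6 were lower at an adjusted p under 0.05 and 5 fell at least 2-fold, from a summed 2413 to 2655 FPKM to 1238 to 1276 FPKM. Of 6 lymphocyte markers 4 passed the filter, 0 rose and 2 fell, and of 6 cholangiocyte markers 4 passed, 0 rose and 1 fell.

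*Sfrp5*, a secreted Wnt antagonist under the filter, was listed at 0 in each WT liver and had 0.679, 0.897 and 0.516 FPKM in β-cateninΔ(ex3)/+ replicates 1 to 3. *Dact2*, a Dishevelled antagonist, averaged 3.15 ± 0.372 FPKM over the WT livers against 6.24 ± 0.344 FPKM over the β-cateninΔ(ex3)/+ livers (SD, n = 3 each), a log2 difference of 0.80 that was under 2-fold. *Tcf7*, a TCF/LEF factor and itself a target of the pathway, averaged 4.23 ± 0.0654 FPKM over the WT livers against 2.99 ± 0.174 FPKM over the β-cateninΔ(ex3)/+ livers (SD, n = 3 each), a log2 difference of -0.39 that was under 2-fold. These 3 genes were named after their values were seen.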
